A study of Mus musculus with 2 samples.

Results

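The myeloid and macrophage lineage genes of the cultured mouse ovary are a list of 33 genes that cells of the monocyte and macrophage line use, from the growth factor receptor Csf1r and the surface marker Adgre1 to lysozymes and pattern recognition receptors. Members were found through the transcript accession of each probe, and 31 of the 33 had a probe that could be paired with the gene, with 41 probes in all among 20658 named genes with a probe. Clec7a and Cd68 could not be paired with a probe and are not analysed here. A member was kept when its probe was well above background on at least 1 array, which held for 29 genes, and 25 of these were well above background on both arrays.

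The tissue was the ovary of 2-week-old mice, cut lengthwise into matching pieces and held in organ culture for 3 days. One condition received TKR agonists, namely [Sar9, Met(O2)11]-SP for TACR1, GR-64349 for TACR2 and a succinylated fragment of substance P with an N-methylated residue for TACR3. The other received TKR antagonists, namely a non-peptide compound for TACR1, GR-94800 for TACR2 and SB218795 for TACR3, with each ligand at 1 μM in both conditions. Each condition was measured on 1 single-colour array, both arrays lay on the same slide, no untreated ovary was measured on an array, and the strain and the number of ovaries behind each RNA are not given in the sources used here. The spread between ovaries is therefore unknown, no test was made, and every value below describes this pair of arrays.

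Macrophages arise from embryonic precursors and from blood monocytes, and they depend on the receptor CSF1R and the transcription factor PU.1, encoded by Spi1. They recognise microbes and dying cells through scavenger and lectin receptors, take up antibody-coated particles through Fc receptors whose signal passes through adaptors with an immunoreceptor tyrosine-based activation motif (ITAM), and kill with lysozyme, perforin-2 and the phagocyte oxidase. In the ovary, macrophages lie in the stroma and around vessels and clear the remains of degenerating follicles. The arrays were made from whole tissue, in which fewer cells of a type and less RNA per cell cannot be told apart.

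A signal below is the image software's background-subtracted spot brightness, in arbitrary units that allow a gene to be compared between the arrays but not with another gene. The log2 ratio sets agonists over antagonists, so that positive values are higher with the agonists, after each array was reduced by its 75th percentile, 672 signal units with the agonists and 569 with the antagonists, so it is lower than the ratio of the printed signals. The software's own error covers the reading of the spots only and was 0.20 to 0.24 in log2 units for the brightest probes of the genes measured on both arrays. It was larger for dim probes, up to 0.44 for Cybb among members well above background on at least 1 array. For Ccr2 and Spi1, which were so on neither, it was 1.565 and 2.049. Of the 59305 spots that are not controls, 65.4% and 61.6% were well above background with the agonists and the antagonists, and 0 were saturated.

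Of the 25 myeloid genes well above background on both arrays, 24 had a log2 ratio above 0, and 13 (52.0%) were higher with the TKR agonists by 2-fold or more, while 0 were lower by as much. Over the 15260 named genes well above background on both arrays, 4.01% were higher and 0.577% lower by 2-fold or more. The median log2 ratio of the 25 myeloid genes was 1.03, with a middle 50% from 0.67 to 1.42, whereas that of all 15260 genes was -0.10, with an SD of 0.48 across genes. Only 37.7% of all these genes lay above 0 and 3.78% above the myeloid median. The exception below 0 was Itgam, at -0.31 on its brightest probe, although its probes differed in sign. The other 4 detected members, Fcgr1, Cybb, Ncf1 and Ptprc, were well above background with the agonists only, and 0 members were so with the antagonists only. Of the 16282 named genes with such a signal on 1 array or both, 5.21% were so with the agonists only and 1.07% with the antagonists only, so the agonist side was favoured over all genes too. Because the list was drawn up by function with the results of these arrays known, these counts describe the list and do not test it.

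**Figure D1:**
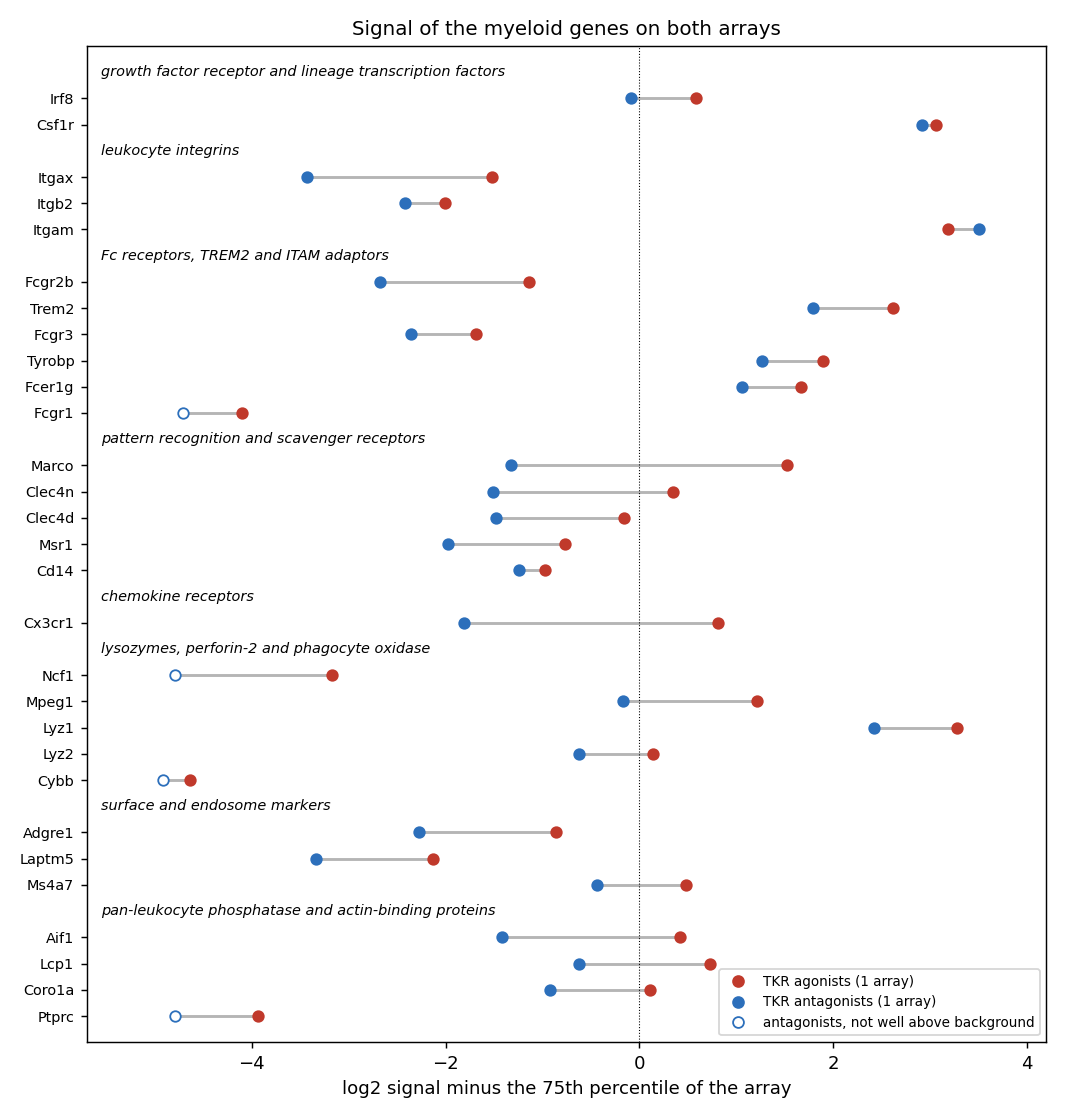
Each line joins the signal of 1 myeloid gene on the TKR antagonist array (blue) and the TKR agonist array (red), as log2 signal minus the 75th percentile of the array, with genes grouped by role. The red point lies to the right for every gene drawn except Itgam, and the open blue circles mark the 4 genes that were not well above background with the antagonists.

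The widest gaps between the arrays belonged to receptors by which macrophages bind particles and signals. Marco, a scavenger receptor that binds bacteria and dust, had a signal of 1927 with the agonists against 227 with the antagonists, a log2 ratio of 2.84 and rank 22 from the top among all 15260 genes. Cx3cr1, the receptor for the membrane-bound chemokine fractalkine and a marker of tissue macrophages and patrolling monocytes, had signals of 1176 and 163 and a log2 ratio of 2.61. The other Cx3cr1 probe was dim, with 55.7 against 19.6, and was well above background with the agonists only. With the antagonist value set at the detection floor it was 2.37-fold higher, with a software error of 0.41 in log2 units. Both probes of Cx3cr1 thus ran the same way, and 5 members in all were among the highest 1% of genes and 14 among the highest 5%.

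Marco and Cx3cr1 had the largest ratios, Fcgr2b was measured on the most spots, and Itgam was below 0 on its brightest probe. The stretches of letters before the start of these 4 genes are shown. Each is the 250 bases before the RefSeq start site in assembly GRCm38.p6, read 5′ to 3′ along the gene, at chr1:120505025-120505274 on the minus strand for Marco, chr9:120068297-120068546 on the minus strand for Cx3cr1, chr1:170976072-170976321 on the minus strand for Fcgr2b and chr7:128062390-128062639 on the plus strand for Itgam. Capitals mark GAGGAA, the core that PU.1 binds, and the ETS-IRF composite element (GGAA, a pair of any bases, then GAAA), on either strand.
Marco: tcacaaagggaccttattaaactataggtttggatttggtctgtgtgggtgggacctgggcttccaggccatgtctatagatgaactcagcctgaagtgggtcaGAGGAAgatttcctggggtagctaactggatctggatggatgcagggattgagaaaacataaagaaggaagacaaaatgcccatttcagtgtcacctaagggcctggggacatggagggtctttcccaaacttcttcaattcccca
Cx3cr1: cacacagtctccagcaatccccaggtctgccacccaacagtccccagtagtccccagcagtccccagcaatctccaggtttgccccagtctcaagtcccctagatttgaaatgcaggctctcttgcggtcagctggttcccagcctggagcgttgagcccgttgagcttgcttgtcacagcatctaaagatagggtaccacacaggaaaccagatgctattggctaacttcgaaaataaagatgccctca
Fcgr2b: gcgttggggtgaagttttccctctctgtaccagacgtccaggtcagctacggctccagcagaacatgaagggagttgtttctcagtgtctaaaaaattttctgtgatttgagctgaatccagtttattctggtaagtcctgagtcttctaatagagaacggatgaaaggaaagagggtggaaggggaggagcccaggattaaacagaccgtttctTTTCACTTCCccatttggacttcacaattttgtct
Itgam: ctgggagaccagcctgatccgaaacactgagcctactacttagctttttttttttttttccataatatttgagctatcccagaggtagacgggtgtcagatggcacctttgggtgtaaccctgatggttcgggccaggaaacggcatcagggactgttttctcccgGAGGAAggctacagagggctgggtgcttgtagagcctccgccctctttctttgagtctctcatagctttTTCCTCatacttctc
Marco held 1 match to GAGGAA and Itgam held 2, Fcgr2b held 1 match to the composite element on the opposite strand, and Cx3cr1 held neither. A RefSeq promoter was given for 25 of the 33 members, of which 11 (44.0%) held GAGGAA, against 25.9% of all 27025 genes with a promoter. The composite element was found in 2 members, Clec7a and Fcgr2b, and in 2.68% of all genes. The TATA box letters TATAAA were found in 3 of the 25 members and in 14.3% of all genes. The letters GGAA are shared by the first and the second motif, so 1 stretch can match both, and a match describes the letters and not a bound site.

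The remaining pattern recognition and scavenger receptors followed Marco. Clec4n, the lectin Dectin-2 that binds fungal mannans, had signals of 854 with the agonists and 199 with the antagonists and a log2 ratio of 1.86. Clec4d, a related lectin receptor encoded in the same gene cluster, had 602 and 204 and a log2 ratio of 1.32. Msr1, the class A scavenger receptor that takes up modified lipoproteins, gave 1.21 with its brighter probe, at 395 and 145, and 0.56 with its dimmer probe, at 132 and 75.5. Cd14, the co-receptor for lipopolysaccharide, was the lowest of this group at 342 and 240, a log2 ratio of 0.27. Of the 5 genes of the group with a probe, 4 were at least 2-fold higher, and their median was 1.32.

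The integrins, which attach leukocytes to vessel walls and to complement-coated particles, did not move together. Itgax, the CD11c chain found on dendritic cells and some macrophages, had signals of 234 with the agonists and 52.8 with the antagonists and a log2 ratio of 1.91, which was 1.12 with normexp background correction. Itgb2, the CD18 chain with which both others pair, had 168 and 106 and a log2 ratio of 0.42. Itgam, the CD11b chain, had 6129 and 6445 on its brightest probe and a log2 ratio of -0.31. Its other probes, both well above background on both arrays, gave 0.64 at 101 and 54.9 and -0.39 at 67.51 and 74.95. The ratios of the Itgam probes thus differed in sign and spanned 1.03 on the log2 scale, against a software error of 0.20 to 0.25 for each, so no direction is given for Itgam.

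The growth factor receptor and the transcription factors that set the lineage gave unlike values. Csf1r, the receptor for CSF1 and IL-34 without which most tissue macrophages are lost, had signals of 5607 with the agonists and 4285 with the antagonists and a log2 ratio of 0.15. Its other probes gave -0.09, at 952 and 859, and 0.04, at 49.96 and 41.0, and all 3 ratios lay within the software error of 0. Irf8, a factor needed for monocytes and some dendritic cells, had 1005 and 534 and a log2 ratio of 0.67. Spi1, the gene of PU.1, was not well above background on either array, at 4.24 and 4.42, and has no ratio here.

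**Figure D2:**
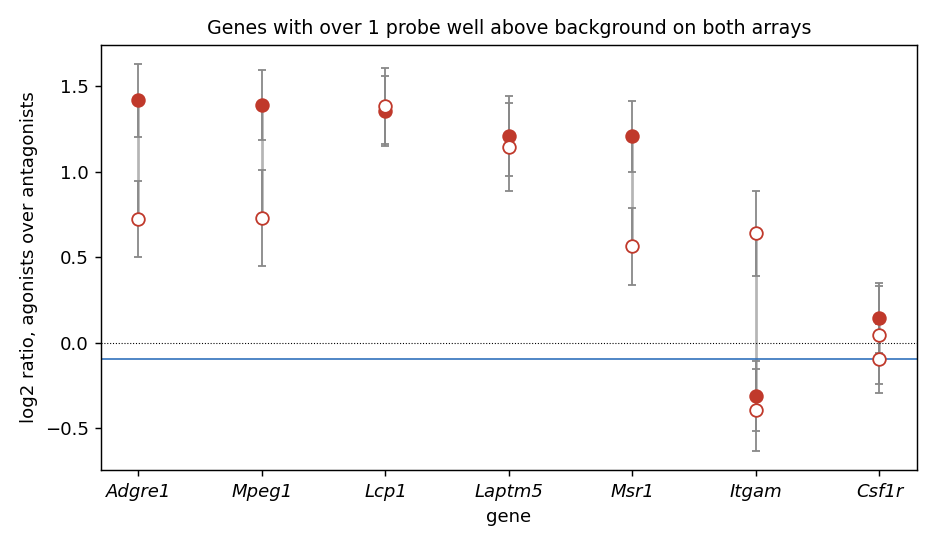
Log2 ratio, agonists over antagonists, for each probe of the 7 myeloid genes with over 1 probe well above background on both arrays; filled points are the brightest probe, which stands for the gene elsewhere, bars are the software error, and the blue line is the median of all named genes (-0.10). The probes of Lcp1 and Laptm5 nearly coincide, those of Adgre1, Mpeg1 and Msr1 differ in size but not in sign, and those of Itgam and Csf1r lie on both sides of 0.

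Fc receptors and the adaptors that carry their signal were all higher with the agonists, mostly by less than 2-fold. Fcgr2b, the inhibitory receptor for IgG, is the member with the most spots, 10 on each array, which ran from 274 to 379 with the agonists and from 73.2 to 114 with the antagonists. After scaling, the gap from the brightest antagonist spot up to the dimmest agonist spot was 1.02 in log2 units, so the spots of the arrays did not overlap. The mean over spots not marked as outliers was 307 and 89.1, a log2 ratio of 1.54, and the ratio of single spots ran from 1.32 to 1.91 with an SD of 0.17 (n = 10 spots). These spots repeat the reading of 1 RNA and are not replicate ovaries; the median SD over the 284 such 10-spot probes that both arrays measured well was 0.07.

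Trem2, a lipid-sensing receptor of macrophages and microglia, had signals of 4125 with the agonists and 1964 with the antagonists and a log2 ratio of 0.83. Fcgr3, a low-affinity activating receptor, had 208 and 111 and a ratio of 0.67. Tyrobp, the adaptor DAP12 that serves TREM2, had 2497 and 1366 and a ratio of 0.63. Fcer1g, the common gamma chain of activating Fc receptors, had 2141 and 1188 and a ratio of 0.61, so that Trem2, Fcgr3 and both adaptors lay between 0.61 and 0.83. Fcgr1, the high-affinity receptor, was dim at 39.2 and 21.8 and well above background with the agonists only. After scaling, it was 1.52-fold higher, with a software error of 0.40 in log2 units. Fcgr2b and Fcgr3 are similar in sequence over their extracellular parts, and how far their probes share targets was not tested.

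The genes of microbial killing were higher with the agonists wherever both arrays measured them. Mpeg1, the pore-forming perforin-2 of phagocytes, had signals of 1561 with the agonists and 505 with the antagonists and a log2 ratio of 1.39, and its dimmer probe gave 0.73 at 66.9 and 34.2. Lyz1 had 6517 and 3042 and a ratio of 0.86, and Lyz2, the lysozyme of macrophages and neutrophils, had 742 and 370 and a ratio of 0.76. The lysozyme genes are near copies of each other, Lyz1 being known mainly from Paneth cells of the gut, so the signal cannot be split between them with certainty. Ncf1, the p47 subunit that activates the phagocyte oxidase, was well above background with the agonists only, at 74.8 against 20.6. After scaling, it was 3.08-fold higher, with a software error of 0.38 in log2 units. Cybb, its catalytic subunit gp91, was near the detection limit at 27.1 and 18.9, and its software error of 0.44 in log2 units exceeds its log2 ratio of 0.28.

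The surface and endosome markers of macrophages gave ratios between 0.92 and 1.42. Adgre1, which encodes the F4/80 antigen by which mouse macrophages are stained, had signals of 370 with the agonists and 117 with the antagonists and a log2 ratio of 1.42, and 0.72 on its dimmer probe, at 152 and 78.1. Laptm5, a lysosomal protein of blood cells, gave 1.21 and 1.14 on its probes, at 154 and 56.3 and at 105 and 40.0. Ms4a7, a membrane protein of macrophages, had 939 and 421 and a ratio of 0.92. The markers of this group were thus higher with the agonists on every probe, 2 of the 3 genes by at least 2-fold. With normexp background correction, Adgre1 gave 0.90 and Laptm5 0.75, so that neither reached 2-fold.

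The CD45 phosphatase and the actin-binding proteins of leukocytes were higher with the agonists. Aif1, the actin-binding protein IBA1 used to stain macrophages and microglia, had signals of 902 with the agonists and 213 with the antagonists and a log2 ratio of 1.84. Lcp1, the actin-bundling protein L-plastin, gave 1.36 at 1116 and 369, and its other probe 1.38 at 229 and 74.3, the closest pair of probes in the list. Coro1a, another actin-binding protein of leukocytes, had 726 and 301 and a ratio of 1.03, the member nearest above the 2-fold threshold, which lay below it with normexp at 0.91. The member nearest below it was Ms4a7. Ptprc, the phosphatase CD45 that all nucleated blood cells carry, was well above background with the agonists only, at 44.0 against 20.6. After scaling, it was 1.81-fold higher, with a software error of 0.38 in log2 units.

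Ccr2, the receptor by which monocytes leave the bone marrow towards CCL2, was not well above background on either array, at 10.3 and 4.30. Csf1r, Adgre1, Itgam, Aif1, Mpeg1 and Lyz2 were among the members well above background on both arrays, while Ptprc, Fcgr1, Cybb and Ncf1 were so on 1 array. Spi1 was so on neither, and Cd68 could not be paired with a probe. Which cells of the tissue gave these signals was not tested.

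**Figure D3:**
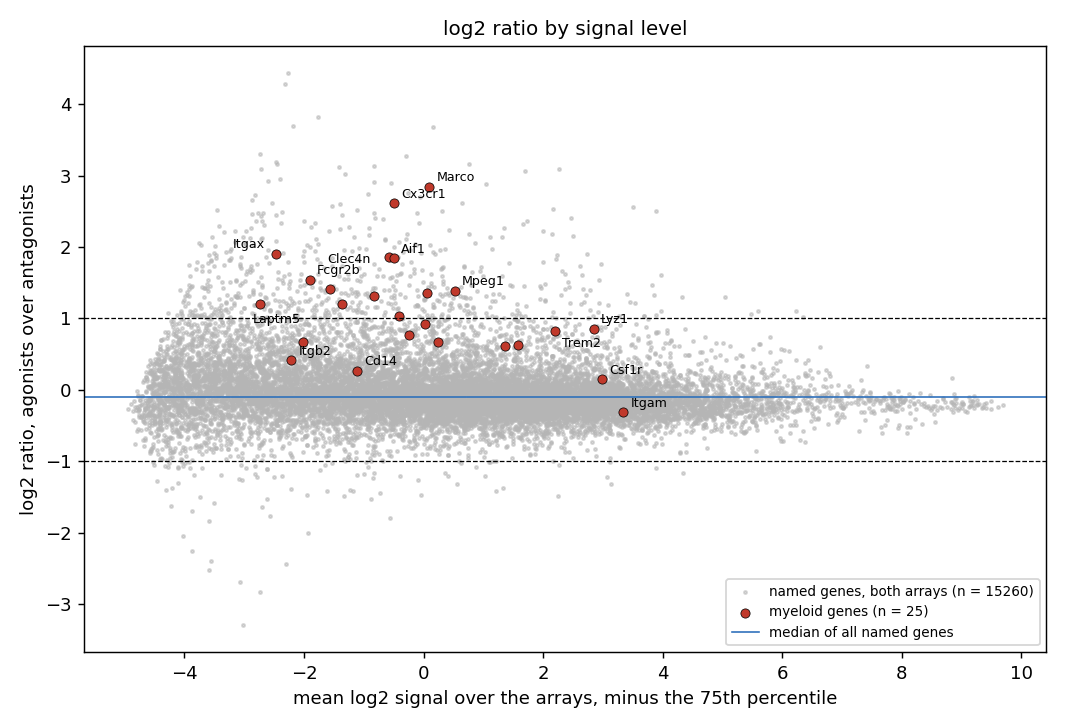
Log2 ratio, agonists over antagonists, against the mean log2 signal of the arrays minus their 75th percentile, for 15260 named genes (grey) and 25 myeloid genes (red), with dashed lines at 2-fold. The myeloid genes lie across the range of levels and 13 of them lie above the upper dashed line, while the bright probes of Csf1r and Itgam lie within the grey band around the median of all genes.

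Ligands of the member receptors were all measured on both arrays. Among the chemokines that bind CCR2, Ccl12 had signals of 382 with the agonists and 62.9 with the antagonists and a log2 ratio of 2.36, Ccl7 had a ratio of 1.57 at 782 and 223, and Ccl2 had 0.70 at 2353 and 1227. These CCR2 ligands were thus all higher on the agonist array, while Ccr2 itself was not well above background on either. Lbp, which hands lipopolysaccharide to CD14, had a ratio of 2.00 at 361 and 76.5, and Icam1, a ligand of CD18 integrins, had 0.95 at 89.9 and 39.3. For the CSF1R ligands, Il34 had 0.52 at 587 and 347 and Csf1 had -0.24 at 680 and 678, with its 3 probes between -0.58 and -0.24. Cx3cl1, the ligand of CX3CR1, had -0.09 at 1223 and 1103, close to the median of all genes, while its receptor had 2.61. Apoe, a ligand of TREM2, had 0.42 at 58180 and 36910. Of the 9 ligands, 3 were at least 2-fold higher and 0 lower, with a median of 0.70.

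The partners of CYBB and NCF1 in the phagocyte oxidase that both arrays measured all differed by less than 2-fold. Ncf4 had a log2 ratio of 0.88, the membrane subunit Cyba 0.49, the GTPase Rac2 0.49 and the chaperone Cybc1 -0.28. Of the 12 kinases and adaptors downstream of ITAM receptors, all measured on both arrays, 11 lay above 0, 2 were at least 2-fold higher and the median was 0.47. The highest were the exchange factor Vav1 (1.09, and 0.66 on its other probe) and the phosphatase Inpp5d (1.05), and the lowest the kinase Fgr (-0.21) and the adaptor Dok3 (0.16).

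Other macrophage genes, 23 listed and 18 measured on both arrays, had a median of 0.80, with 7 at least 2-fold higher and 0 lower. The highest were the inhibitory receptor Pirb (2.08) and the hyaluronan receptor Lyve1 (1.84), which lymphatic vessels also express, and the lowest Ifi30 (-0.33) and Cebpa (-0.21). A further 4, Cd86, Clec4a3, Siglec1 and Vsig4, were well above background with the agonists only, and Cd163 was so on neither array. With the antagonist value at the detection floor, the folds of these 4 ran from 1.06 (Vsig4) to 3.035 (Siglec1). Their software errors were 0.78 to 1.33 in log2 units. Over all named genes with such a signal on 1 array or both, 5.21% were so with the agonists only. Over these macrophage genes, the other pan-leukocyte genes, the ITAM kinases and the oxidase partners together, 11 of the 49 genes measured on both arrays were at least 2-fold higher, 0 were lower, and the median was 0.51, above the median of all genes and below that of the members. Of 9 monocyte genes with a probe, 8 were measured on both arrays with a median of 0.64. The highest were F13a1 (4.43) and Ace (1.52) and the lowest Nr4a1 (0.07) and Chil3 (0.34). F13a1 had signals of 647 and 25.4, the second near the antagonist floor of 19.9. Its software error was 0.31 in log2 units.

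Markers of other blood cells differed between cell types. Of 42 listed genes of T and NK cells, B cells, mast cells, neutrophils and dendritic cells, 23 were well above background on at least 1 array and 16 on both, and these 16 had a median of -0.07, with 1 at least 2-fold higher. That gene was Thy1 (1.77), which fibroblasts also express; the other T and NK cell genes measured on both arrays lay between -0.43 and 0.10. Some of the 16 genes had high signals with the agonists and the antagonists: Siglech 135100 and 134300, Cd4 6019 and 4736, and Elane 4613 and 3781. Which cells these probes read was not tested, so the median of the 16 genes may not describe these blood cells. Cd3d, Cd8a, Ncr1 and Pax5 were not well above background on either array, nor were Cpa3, Mcpt4, Cma1 and Ms4a2 of mast cells or S100a8, Ngp, Cxcr2, Retnlg and Stfa2l1 of neutrophils. The neutrophil genes measured on both arrays were Camp (0.88) and Elane (0.05), with a median of 0.46. Ltf, Mpo and S100a9 were well above background with the agonists only, as were 5.21% of all named genes with such a signal. Their folds over the detection floor were 1.785, 1.25 and 1.35, with software errors of 1.46, 0.69 and 0.46 in log2 units. The part of neutrophils in the myeloid ratios was not tested.

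Genes of other ovarian cell types also differed between the arrays. Endothelial genes (9 of 10 measured on both arrays) had a median of 0.93 and surface epithelium genes (8 of 8) of 0.95, each with 3 at least 2-fold higher, and stromal genes (8 of 8) had 0.45. Granulosa genes (9 of 9) had a median of -0.47 and proliferation genes (12 of 12) of -0.51, with 0 at least 2-fold lower in either list, and oocyte genes (10 of 10) had 0.05. Summed over a list, with each signal divided by the 75th percentile of its array, the levels were 77.2 with the agonists and 62.0 with the antagonists for endothelium, 70.4 and 45.6 for surface epithelium, 408 and 339 for stroma, 110 and 143 for granulosa and 86.2 and 121 for proliferation. The same sum over the 31 members with a probe was 60.9 and 40.1. The part of the other cell types in the myeloid ratios was not tested.

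**Figure D4:**
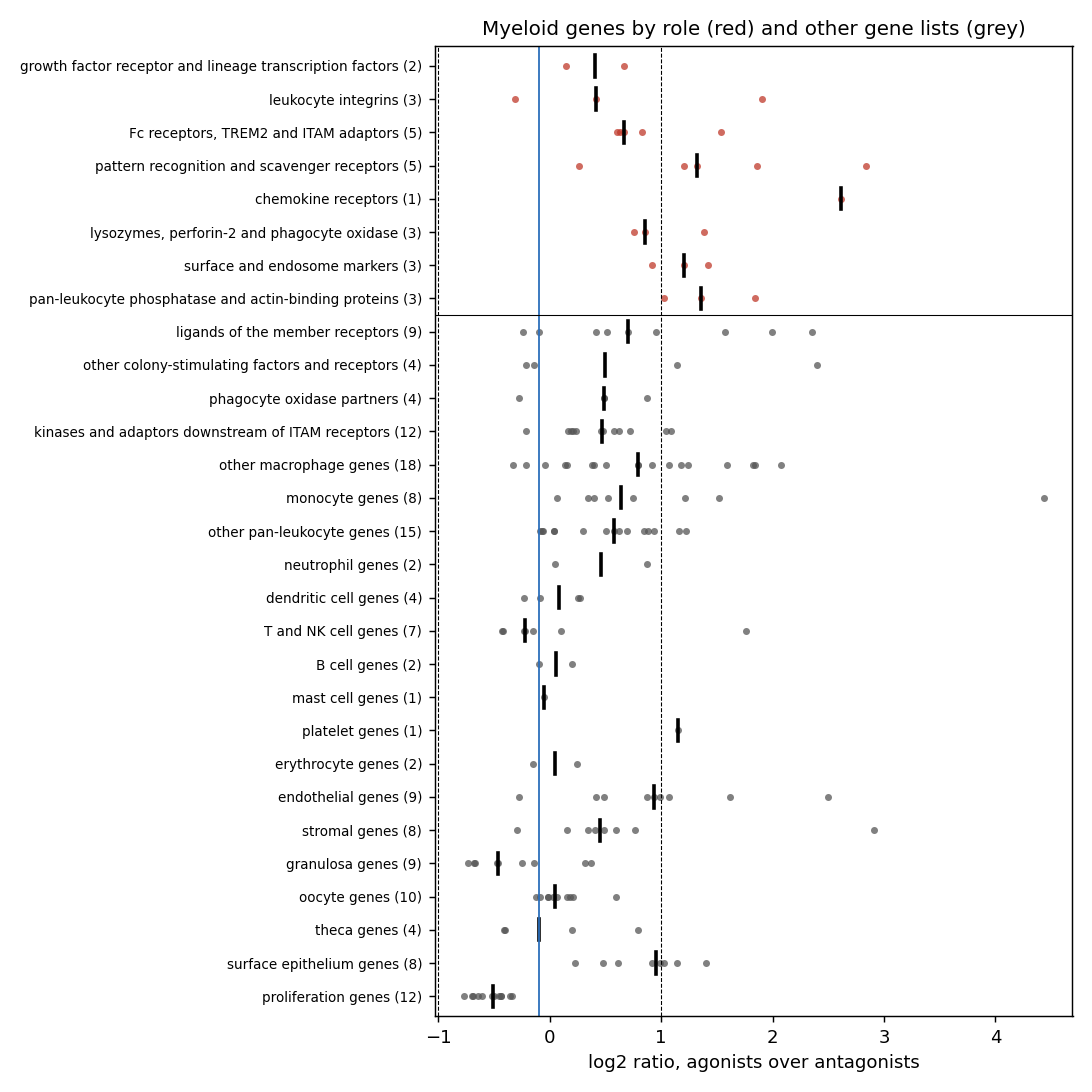
Log2 ratio, agonists over antagonists, of each gene well above background on both arrays, by role for the myeloid genes (red) and for other lists (grey), with the number of genes in brackets. Black bars are list medians, the blue line is the median of all named genes (-0.10) and dashed lines mark 2-fold; the myeloid roles lie to the right of the blue line except for Itgam, and the lymphocyte, mast and dendritic cell lists have medians near it, while the neutrophil list has 2 genes and a median of 0.46.

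The scaling of the arrays set the size of every log2 ratio. Without scaling, the median of all genes moved from -0.10 to 0.15 and the myeloid median from 1.03 to 1.27, and scaling on the spike-in controls gave 0.15 and 1.27. The distance between the medians was 1.12 under both, which had to be so because these scalings move every gene by the same amount. Over all settings, the myeloid median ran from 0.83 to 1.27, and it was above the median of all genes in each.

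**Figure D5:**
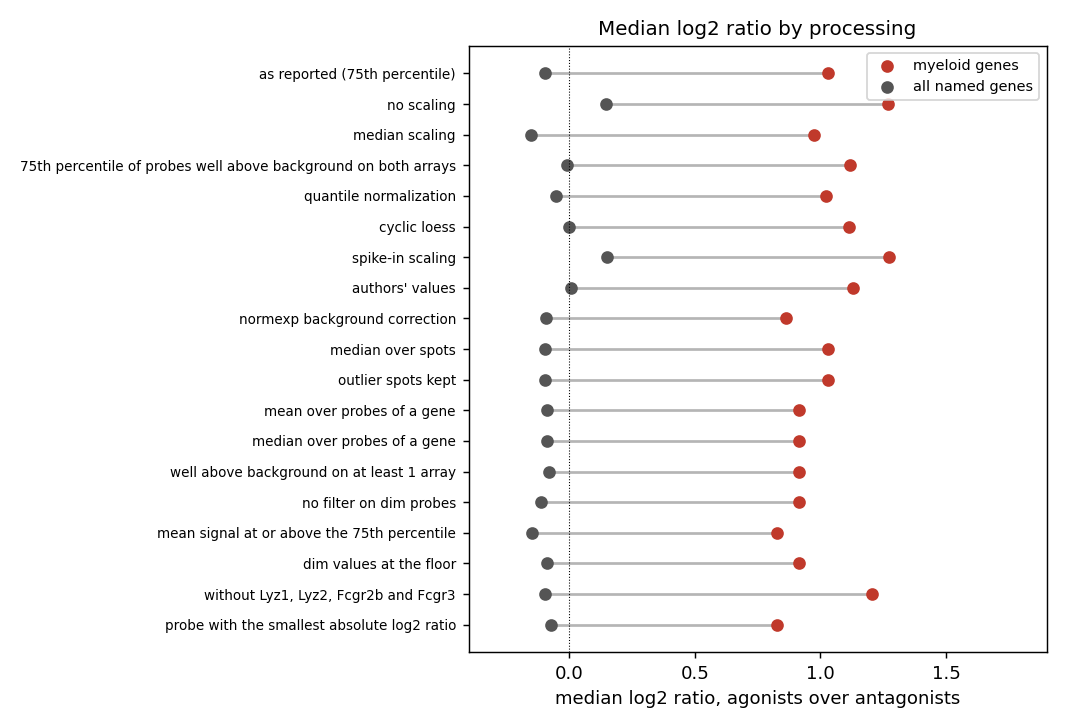
Median log2 ratio, agonists over antagonists, of the myeloid genes (red) and of all named genes (grey) under each way of processing the arrays. The myeloid median lies to the right of the median of all genes in every setting drawn, from 0.83 to 1.27.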

How the data were processed

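Myeloid genes were compared between 1 array of ovaries cultured with TKR agonists and 1 with TKR antagonists, grouped by the sample labels. The authors deposited linear spot intensities from Agilent Feature Extraction 10.10.1.1, background-subtracted and not scaled between arrays, with other marks of the software (0 or 1) for outliers, saturation and signal well above background; their summary table equals this intensity times 1 constant per array (1.99 and 2.19). Control and outlier spots were left out, log2 signals were reduced by the array's 75th percentile, and spots of a probe were averaged (55674 probes). Probes needed this mark on over 50% of their spots to count as well above background. Names came from RefSeq transcripts of assembly GRCm38 (27230 probes with a symbol); the array was designed on another assembly. The probe with the highest mean signal stands for a gene. The fold of a probe well above background on 1 array is its level over the larger of its dim value and the detection floor. The floor is that of the other array, the smallest signal of any probe well above background there (19.9 with the antagonists). This fold does not allow for the software error.

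With 1 array per group no test was made, and the number of arrays limits the precision. Members and lists were chosen with earlier results of these data known. All members are reported; of other lists, only ligands, oxidase partners and the 2 highest and 2 lowest genes of a list could be named by rule (several lists are given by median alone), and other genes named as measured on 1 array or not detected were chosen after their values were seen. Alternatives were other scalings, normexp background correction (offset 50), other summaries and filters, and 1.5-fold and 4-fold thresholds. The calculation was tested on simulated data. Python 3.11.15, numpy 2.4.6, pandas 2.3.3, matplotlib 3.10.9, R 4.3.3 and limma 3.58.1 were used.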

Additional observations from a re-analysis of the deposited data

How the results depend on the processing

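The value of Itgam stayed below 0 in the 16 alternatives that recomputed it, and those of the other 24 myeloid genes stayed above 0 in theirs. Most alternatives kept the same brightest probe, so a kept sign says little about a gene's other probes. Itgam came up to -0.02 and Csf1r down to 0.03, and the probes of each differ in sign, so no direction is given for either. The number at least 2-fold higher was 13 as reported, 17 without scaling and with spike-in scaling, 10 with normexp background correction (Adgre1, Coro1a and Laptm5 lay below 2-fold), and 10 where each gene took its probe nearest to 0, an alternative chosen after seeing the data. It was 3 of 11 where the mean signal had to reach the 75th percentile. At a 1.5-fold threshold it was 21 of 25, and at a 4-fold threshold 2 of 25. In every setting 0 were lower. The median moved from 1.03 to 1.27 without scaling and to 1.27 with spike-in scaling, and otherwise ran from 0.83 to 1.21. Counts over all genes changed with the setting too: 612 higher and 88 lower as reported, 992 and 39 when unscaled, 997 and 38 after spike-in scaling, 330 and 32 under normexp, 1349 and 554 when dim probes were kept, 1413 and 653 at 1.5-fold and 104 and 9 at 4-fold. The all-gene counts were 176 and 19 where the mean signal had to reach the 75th percentile, and 572 and 81 with the probe nearest to 0. Filters also changed how many genes were counted, so these counts are not shares. The 1.5-fold and 4-fold thresholds counted the same 15260 genes as the reported setting, of which 1413 and 104 were higher. The number of all genes left by the 75th percentile filter is not given here, so 3 of 11 has no share beside it. No paired analysis was possible because there is a single array per treatment and nothing was tested. Replicate ovaries would be needed for any error beyond that of the spots. The folds of dim probes such as those of Cybb and Ptprc carry large software errors (0.44 and 0.38 in log2 units).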

Other observations

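Among colony-stimulating factors and receptors other than CSF1R, Csf2rb, the shared receptor chain for GM-CSF and related cytokines, had a signal of 964 with the TKR agonists against 155 with the antagonists, a log2 ratio of 2.40, while its other probe gave 0.03. Flt3l, the growth factor of dendritic cell precursors, had a ratio of 1.14 at 233 and 89.2. Csf2ra had -0.22 at 5146 and 5052, and Csf3r had -0.14 at 78900 and 73530. Which cells the Csf2ra and Csf3r probes read was not tested. Csf2, Csf3 and Flt3 were not well above background on either array.

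Of 5 platelet genes, Pf4, which macrophages also express, was the only one well above background on both arrays, with signals of 1787 and 682 and a log2 ratio of 1.15. The other 4, Itga2b, Ppbp, Gp9 and Gp1ba, were not well above background on either array.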
